A study of Mus musculus with 9 samples.

Results

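The genes of the RNA polymerase II machinery were followed across primary mouse pro-B cell cultures by RNA sequencing. The set held 47 genes, taken by symbol from the deposited FPKM tables: subunits of the polymerase, general initiation factors, the kinases that release it from the promoter, elongation factors and parts of Mediator. All 47 were among the 23279 gene rows, and all 47 reached a mean raw FPKM of 1 and were tested, with 10878 genes tested in all. An FPKM value is a fragment count corrected for transcript length and library size.

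Bone marrow cells of mice aged 6 to 8 weeks had been grown with interleukin-7, and colonies were pooled after 7 days. The 3 groups had 3 libraries each. Ts1Rhr mice, on an FVB x C57BL/6 F1 background, carry an extra copy of the chromosome 16 segment from Cbr1 to Fam3b. Hmgn1-overexpressing mice, on C57BL/6, overexpress Hmgn1, a gene of that segment whose product binds nucleosomes. Wild-type littermates were the controls. The mutant groups differ in strain as well as genotype, which cannot be told apart. Neither the strain of the littermates nor the promoter and species of the transgene is stated in the labels. The label for cell type names Ts1Rhr for every library, wild type included, so groups were taken from the genotype field. The labels call the libraries biological replicates without naming animals, so p-values reflect only how far these libraries vary, which may be technical in part.

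RNA polymerase II makes messenger RNA. General initiation factors place it at a promoter and Mediator links it to activators. The kinase module of TFIIH phosphorylates its tail. The polymerase then pauses a short way into the gene under the factors DSIF and NELF, until P-TEFb, a kinase of Cdk9 and a cyclin T, releases it. Hexim1 and Larp7 hold P-TEFb inactive on the 7SK RNA. In the elongating state SPT6, FACT and the PAF1 complex travel with it through nucleosomes. The series asks whether an extra copy of the segment raises transcription as a whole through Hmgn1, which makes the level of this machinery a matter of interest.

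Properties of the libraries bear on every value below. The ribosomal RNA row Rn45s ran from 325 raw FPKM in Ts1Rhr replicate 2 to 10510 in wild-type replicate 1. The groups overlapped in it, and its part in the results was not tested. Pro-B markers were present in all libraries, but so were myeloid ones. The 22 myeloid markers summed to 14578 to 16909 raw FPKM in Ts1Rhr, 13175 to 27380 in Hmgn1-overexpressing and 22592 to 33832 in wild-type libraries, mostly Lyz2. The 15 pro-B markers summed to 3325 to 4139, 3357 to 4676 and 2508 to 3265 raw FPKM in Ts1Rhr, Hmgn1-overexpressing and wild-type libraries. The 8 stromal markers summed to 4.29 to 17.2 in Ts1Rhr, 3.14 to 12.7 in Hmgn1-overexpressing and 58.7 to 94.7 raw FPKM in wild-type libraries. Markers of erythroid, T and NK, and mast cells summed to at most 5.16 raw FPKM. In such mixed cultures a change in the share of a cell type and a change in the RNA per cell cannot be told apart, and the part of these markers in the results was not tested. Ts1Rhr replicate 3 had 41.8 raw FPKM of the Y-linked gene Ddx3y and 0.443 of Xist, against at most 0.0642 of Ddx3y and at least 94.2 of Xist in every other library. Hmgn1 itself stood at 127, 125 and 126 raw FPKM in Ts1Rhr, at 77.2, 71.9 and 73.4 in Hmgn1-overexpressing and at 60.1, 67.3 and 58.5 in wild-type libraries, with no overlap between groups. On normalised FPKM it was 1.92-fold wild type in Ts1Rhr and 1.33-fold in Hmgn1-overexpressing cultures, again without overlap. Even so, on normalised FPKM Hmgn1 did not pass the test used below in either group (limma, Benjamini-Hochberg, adjusted p 0.0909 and 0.54).

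None of the 47 genes passed the test in Ts1Rhr against wild type. By limma with Benjamini-Hochberg adjustment over all tested genes, 0 of 47 were called on normalised FPKM, where 0.57% of all genes were called (0.423% higher and 0.147% lower), and 0 of 47 on raw FPKM, where 8.85% were (4.29% higher and 4.56% lower). The smallest adjusted p of the 47 was 0.139 on normalised and 0.0519 on raw FPKM, both for Taf1. At an unadjusted p under 0.05 stood 5 of the 47 on normalised FPKM, all higher in Ts1Rhr, beside 19.5% of all genes. On raw FPKM 11 did so, 10 of them higher and 1 lower in Ts1Rhr, beside 30.9% of all genes. Fold changes are fitted differences of log2 values. Raw values hold an added 0.1 and normalised ones were assumed to, a scale that understates the change of low genes.

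The point estimates of the 47 genes lay mostly above 0 in Ts1Rhr. On normalised FPKM 35 of 47 had a positive log2 fold change, against 59.9% of all genes, and their median was 0.23 against 0.12 for all genes. On raw FPKM 34 of 47 were positive, against 51% of all genes, and the medians were 0.15 and 0.01. The 47 genes thus lay above the median of all genes by 0.11 on normalised and 0.14 on raw FPKM. Without wild-type replicate 3 the normalised medians were 0.09 and 0.02, and 29 of the 47 were positive. All 3 Ts1Rhr libraries lay above all 3 wild-type libraries for 12 of the 47 on normalised FPKM, where 21.7% of all genes did. They lay below them for 0 of 47, where 8.43% of all genes did. On raw FPKM 10 were above and 3 below, beside 19.1% and 18.5% of all genes. The counts above wild type were near the background, and those below it were under it.

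Hmgn1-overexpressing cultures gave a like outcome against the same wild-type libraries. Again 0 of 47 were called by limma on normalised FPKM, where 0.0919% of all genes were (0.00919% higher and 0.0827% lower), and 0 of 47 on raw FPKM, where 0.0368% were. The smallest adjusted p (limma, Benjamini-Hochberg) was 0.277 on normalised and 0.266 on raw FPKM, both for Tbp. At an unadjusted p under 0.05 there were 9 genes on normalised FPKM, all higher, beside 11.7% of all genes, and 4 on raw FPKM, beside 14.6%. On normalised FPKM 43 of 47 had a positive log2 fold change, against 72.7% of all genes, with a median of 0.29 against 0.21. The median of the 47 was 0.17, with 32 positive, without Hmgn1-overexpressing replicate 2, and 0.19, with 34 positive, without wild-type replicate 3. On raw FPKM 32 of 47 were positive, against 51.6% of all genes, with medians of 0.10 and 0.01. No overlap with wild type, in the higher direction, was seen for 14 of the 47 on normalised FPKM and for 4 on raw FPKM, beside 16.6% and 9.81% of all genes. None of the 47 was lower without overlap in either table, where 0.8% and 8.25% of all genes were.

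Between the mutant groups, too, 0 of 47 genes were called by limma, as were 0% of all genes in either table. On normalised FPKM 1 of 47, Polr2k, had an unadjusted p under 0.05, beside 4.37% of all genes, and on raw FPKM 2 of 47, beside 8.85%. On normalised FPKM 12 of 47 had a higher estimate in Ts1Rhr than in Hmgn1-overexpressing cultures, against 37.5% of all genes, with medians of -0.06 and -0.09. On raw FPKM 25 of 47 did, against 50.3% of all genes, with medians of 0.02 and 0.00. On normalised FPKM the Ts1Rhr libraries lay above all Hmgn1-overexpressing ones for 0 of 47 and below them for 5, Gtf2b, Larp7, Polr2g, Polr2k and Ssrp1, beside 1.79% and 6.6% of all genes. On raw FPKM they lay above for 7 and below for 2, beside 6.89% and 5.99%, and Polr2g was below in both tables. The highest estimates in Ts1Rhr on normalised FPKM were Gtf2a2 at 0.41 ± 0.29, Gtf2e1 at 0.31 ± 0.29 and Cdk7 at 0.24 ± 0.28 (limma, adjusted p = 0.988 for each).

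How large a difference these data still allow is given by the 95% intervals. In Ts1Rhr against wild type the upper bound lay below a 2-fold rise for 38 of the 47 genes on normalised FPKM and for 44 on raw FPKM. In Hmgn1-overexpressing against wild type it did for 33 and 45. The median interval spanned 1.07 on the log2 scale on normalised and 0.73 on raw FPKM. A 2-fold difference in either direction lay outside the interval for 34 genes in Ts1Rhr and 32 in Hmgn1-overexpressing cultures on normalised FPKM, and for 42 and 44 on raw FPKM. These widths leave room for smaller differences, and a p that missed the threshold does not show equal levels.

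**Figure D1:**
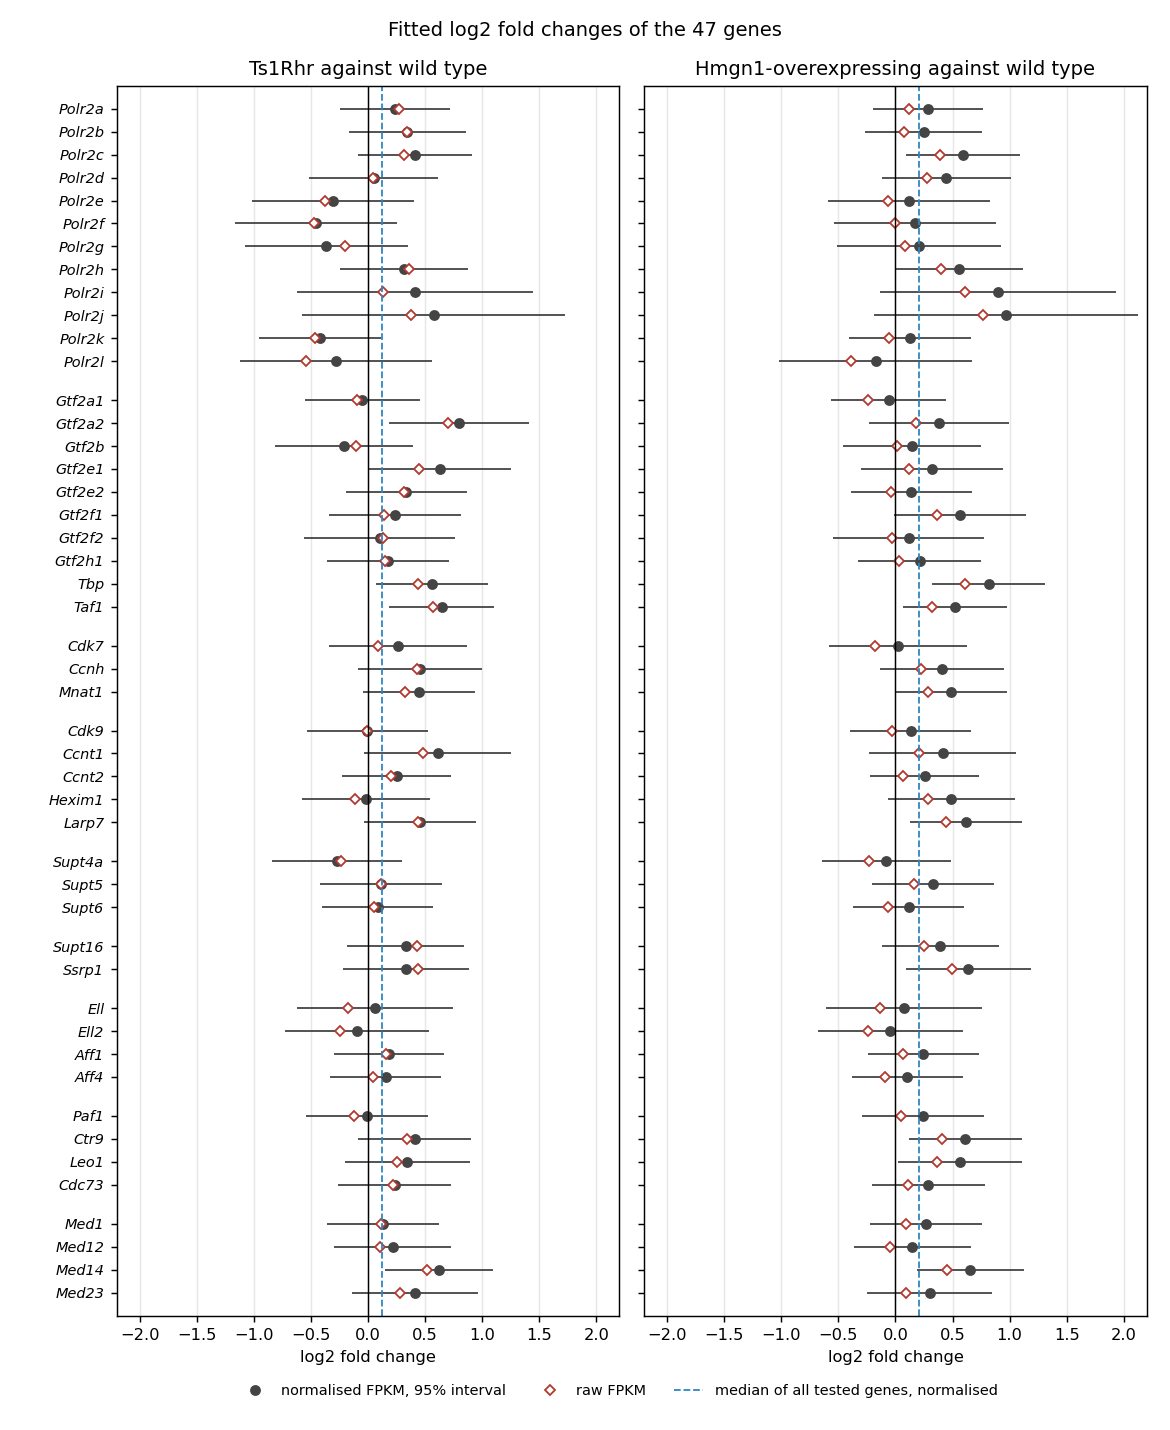
Fitted log2 fold changes of the 47 genes, grouped by role, in Ts1Rhr against wild type (left) and Hmgn1-overexpressing against wild type (right). Filled points with 95% intervals are normalised FPKM, open diamonds raw FPKM, and the dashed line is the median of all tested genes on normalised FPKM, 0.12 and 0.21. Most points lie right of 0 and most intervals cross it.

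The genes nearest to the threshold on raw FPKM in Ts1Rhr were Taf1, Med14 and Gtf2a2, with adjusted p of 0.0519, 0.068 and 0.0746 (limma, Benjamini-Hochberg). Their promoters are shown because they had the smallest adjusted p of the set. RefSeq windows of the GRCm38.p6 build, 250 bases before to 50 after a gene's start, were found for 40 of the 47 genes, in 44 windows. Each is printed 5′ to 3′ along the gene. Capitals mark matches, on either strand, to the TATA box TATAAA, the ETS core CCGGAA, the CCAAT box CCAAT and the GC box GGGCGG.
Taf1, chrX:101532485-101532784, plus strand: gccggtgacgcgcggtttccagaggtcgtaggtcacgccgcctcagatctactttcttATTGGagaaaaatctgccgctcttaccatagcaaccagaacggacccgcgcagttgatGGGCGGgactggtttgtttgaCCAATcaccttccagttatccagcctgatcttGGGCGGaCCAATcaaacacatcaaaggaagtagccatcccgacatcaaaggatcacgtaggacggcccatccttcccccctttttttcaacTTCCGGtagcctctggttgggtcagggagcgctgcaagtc
Med14, chrX:12761924-12762223, minus strand: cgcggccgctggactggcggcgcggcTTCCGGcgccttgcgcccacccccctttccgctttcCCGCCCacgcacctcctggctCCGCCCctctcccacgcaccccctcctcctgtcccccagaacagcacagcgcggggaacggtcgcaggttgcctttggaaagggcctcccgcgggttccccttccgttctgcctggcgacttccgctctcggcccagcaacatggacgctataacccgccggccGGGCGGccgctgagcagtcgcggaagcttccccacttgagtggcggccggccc
Gtf2a2, chr9:70012298-70012597, plus strand: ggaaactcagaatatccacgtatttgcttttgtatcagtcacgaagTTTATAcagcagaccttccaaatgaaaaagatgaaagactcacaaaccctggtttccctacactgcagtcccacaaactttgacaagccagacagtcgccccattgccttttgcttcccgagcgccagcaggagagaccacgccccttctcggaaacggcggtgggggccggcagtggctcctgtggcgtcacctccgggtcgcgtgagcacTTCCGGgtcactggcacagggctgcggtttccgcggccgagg
Each of the 3 windows held 1 match to the ETS core. The Taf1 window also held 3 CCAAT boxes and 2 GC boxes, the Med14 window 3 GC boxes, and the Gtf2a2 window 1 TATA box and no GC box. In these 3 windows no base lay in more than 1 match. Over the 44 windows of the set, 45.5% held the ETS core, against 29.0% of the 10405 windows of tested genes and 14.9% of all 32851 windows. For the GC box the shares were 72.7%, 63.1% and 35.7%, for the CCAAT box 29.5%, 38.0% and 37.4%, and for the TATA box 9.09%, 6.79% and 13.6%. A match describes letters and is not a binding site.

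By level, the machinery covered much of the range of expressed genes. Averaged over the 9 libraries, Polr2g, which with Polr2d forms the stalk of the polymerase, was highest at 186 raw FPKM, above 96.8% of the tested genes. Next came Ssrp1 and Supt16, both subunits of the histone chaperone FACT, at 120 and 111, and Gtf2b (TFIIB) at 104. The lowest were Polr2l at 2.88, Polr2i at 3.22 and Ell, an elongation factor, at 4.66 raw FPKM. Cdk9, the kinase of P-TEFb, was the most even of the 47 on raw FPKM, between 34.9 and 39.7 in the 9 libraries. Polr2j varied most, by 5.88-fold on raw FPKM between its lowest and highest library.

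**Figure D2:**
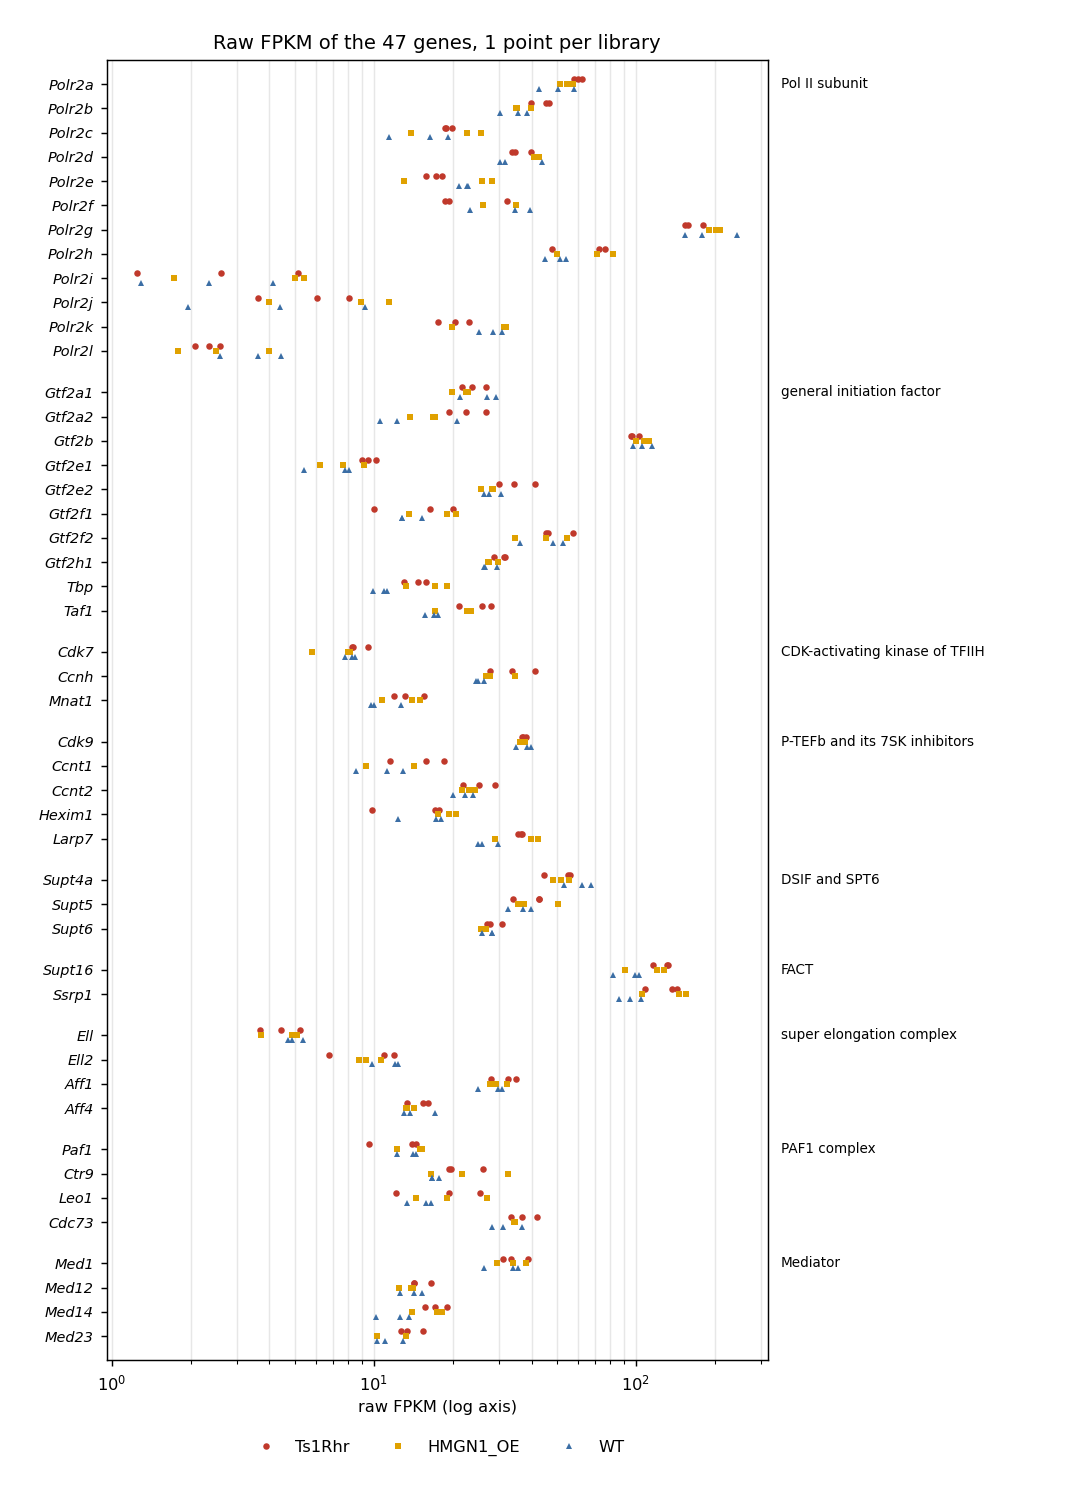
Raw FPKM of the 47 genes on a log axis, 1 point per library, with Ts1Rhr (circles), Hmgn1-overexpressing (squares, HMGN1_OE) and wild-type (triangles, WT) libraries, and roles named at the right. Groups overlap for most genes, Polr2g is highest, and Polr2i, Polr2j and Polr2l are low and scattered.

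Among the 12 polymerase subunits 7 had positive and the other 5 negative estimates in Ts1Rhr, in either table, and the median on normalised FPKM was 0.14. Polr2a, the largest subunit, which carries the phosphorylated tail, had 62.9, 61.2 and 53.0 normalised FPKM in Ts1Rhr, 56.1, 71.6 and 56.7 in Hmgn1-overexpressing and 51.1, 52.6 and 46.7 in wild-type libraries. On this scale both mutant groups lay above wild type, though the lowest Ts1Rhr library exceeded the highest wild-type one only slightly. On raw FPKM it had 60.4, 62.4 and 57.9 in Ts1Rhr, 57.6, 51.4 and 54.5 in Hmgn1-overexpressing and 42.5, 50.5 and 58.2 in wild-type libraries, and both mutant groups overlapped with wild type. Its normalised log2 fold change was 0.23 ± 0.23 (standard error) in Ts1Rhr and 0.29 ± 0.23 in Hmgn1-overexpressing cultures, with adjusted p of 0.588 and 0.625 (limma, Benjamini-Hochberg). Polr2b, the second-largest subunit, had 48.3, 46.1 and 36.7 normalised FPKM in Ts1Rhr, 33.0, 48.5 and 41.8 in Hmgn1-overexpressing and 35.1, 39.3 and 28.9 in wild-type libraries. The groups overlapped on this scale, whereas on raw FPKM Ts1Rhr lay above both other groups, and the normalised log2 fold change was 0.34 ± 0.24 in Ts1Rhr. The raw margin was slight, as the lowest Ts1Rhr library had 39.79 FPKM, the highest Hmgn1-overexpressing one 39.77 and the highest wild-type one 38.3. Polr2c, an assembly subunit, had log2 fold changes of 0.41 ± 0.24 in Ts1Rhr and 0.59 ± 0.24 in Hmgn1-overexpressing cultures (limma, adjusted p 0.342 and 0.352).

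Of the 5 subunits that RNA polymerases I, II and III have in common, 4 had negative estimates in Ts1Rhr in both tables: Polr2e, Polr2f, Polr2k and Polr2l. The stalk subunit Polr2g did as well, while the fifth common subunit, Polr2h, was at 0.31 above wild type on normalised FPKM. Polr2f stood at 34.8, 18.8 and 17.8 normalised FPKM in Ts1Rhr, 32.7, 47.8 and 27.5 in Hmgn1-overexpressing and 45.6, 34.9 and 19.0 in wild-type libraries. Ts1Rhr replicate 1 and wild-type replicate 3 made its groups overlap, and the log2 fold change was -0.46 ± 0.34, the lowest of the 47. Its exons overlap those of the tested gene 1700088E04Rik on the opposite strand, and whether counting used the strand is not stated. Polr2k followed with 22.6, 23.2 and 16.2 in Ts1Rhr, 29.8, 26.9 and 33.0 in Hmgn1-overexpressing and 35.0, 28.5 and 20.5 normalised FPKM in wild-type libraries. All Ts1Rhr libraries lay below all Hmgn1-overexpressing ones on this scale, though not on raw FPKM, with a log2 fold change of -0.55 ± 0.25 between them, and below 2 of the 3 wild-type ones, with -0.42 ± 0.25. Polr2g had 153, 173 and 140 normalised FPKM in Ts1Rhr, 212, 299 and 191 in Hmgn1-overexpressing and 329, 198 and 121 in wild-type libraries. It too was lower in Ts1Rhr than in Hmgn1-overexpressing cultures without overlap, at -0.57 ± 0.34, while wild type spanned both groups. On raw FPKM Polr2k, with 20.5, 23.2 and 17.6 in Ts1Rhr against 30.9, 28.5 and 25.2 in wild-type libraries, did not overlap (limma, adjusted p = 0.133). Polr2e, with 18.2, 17.3 and 15.8 raw FPKM in Ts1Rhr against 22.8, 21.2 and 22.6 in wild-type libraries, did not overlap either (limma, adjusted p = 0.319), although both genes overlapped on normalised FPKM. Polr2l, near the lower limit of the set, had 2.08, 2.36 and 2.59 raw FPKM in Ts1Rhr against 3.61, 4.42 and 2.60 in wild-type libraries (limma, adjusted p = 0.256). The sign of Polr2e, Polr2f, Polr2g, Polr2k and Polr2l in Ts1Rhr against wild type was negative under every alternative run.

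Against the Hmgn1-overexpressing group, 11 of the 12 subunits had a lower estimate in Ts1Rhr on normalised FPKM, with a median of -0.40, and 10 of 12 on raw FPKM, with a median of -0.26. The extremes were Polr2f, at -0.63 ± 0.34 on normalised FPKM, and Polr2b, the single subunit above 0, at 0.10. In Hmgn1-overexpressing against wild type 11 of 12 were positive, with a median of 0.27. Polr2j and Polr2i gave the largest estimates there, 0.97 ± 0.55 and 0.90 ± 0.49, and Polr2l the lowest, -0.17 ± 0.40. Polr2j had 3.38, 11.7 and 12.4 normalised FPKM in Hmgn1-overexpressing and 4.32, 8.67 and 1.75 in wild-type libraries. Polr2i had 4.50, 2.49 and 5.56 in Hmgn1-overexpressing and 2.09, 3.66 and 1.25 in wild-type libraries. Both overlapped, with adjusted p of 0.496 for Polr2j and 0.479 for Polr2i (limma, Benjamini-Hochberg). Exons of Polr2j overlap those of the tested gene Lrwd1, and exons of Polr2i those of the tested gene Tbcb, each on the opposite strand.

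The single genes with the largest positive estimates in Ts1Rhr on normalised FPKM, Gtf2a2, Taf1 and Gtf2e1, were general initiation factors. Of these factors 8 of 10 were above 0 in both tables, with a median log2 fold change of 0.28 on normalised FPKM. As a class they did not lead. The medians of the TFIIH kinase module, FACT, Mediator and the PAF1 complex were 0.45, 0.33, 0.31 and 0.29. Gtf2a2, the small subunit of TFIIA, which steadies the TATA-binding protein on DNA, had 21.9, 26.9 and 20.7 normalised FPKM in Ts1Rhr, 12.4, 22.7 and 18.3 in Hmgn1-overexpressing and 11.3, 20.4 and 10.2 in wild-type libraries. Its Ts1Rhr libraries lay above the wild-type ones by a narrow margin over wild-type replicate 2. The log2 fold change of 0.80 ± 0.29 was the highest of the 47 (limma, adjusted p = 0.165), and its 95% interval ran from 0.18 to 1.41. On raw FPKM its groups overlapped, with 19.4, 26.7 and 22.4 in Ts1Rhr against 10.5, 20.7 and 12.3 in wild-type libraries. Without wild-type replicate 2 its raw adjusted p was 0.0414 (limma, Benjamini-Hochberg).

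Taf1, the largest subunit of TFIID, had 23.4, 28.2 and 24.0 normalised FPKM in Ts1Rhr, 21.6, 23.3 and 24.3 in Hmgn1-overexpressing and 17.1, 16.7 and 14.5 in wild-type libraries. Both mutant groups were clear of wild type on this scale. Its log2 fold change was 0.64 ± 0.22 in Ts1Rhr and 0.52 ± 0.22 in Hmgn1-overexpressing cultures, with adjusted p of 0.139 and 0.37 (limma, Benjamini-Hochberg). On raw FPKM Taf1 had 21.1, 28.1 and 25.9 in Ts1Rhr, 23.4, 17.2 and 22.7 in Hmgn1-overexpressing and 15.6, 17.0 and 17.6 in wild-type libraries. There Ts1Rhr was clear of wild type, and Hmgn1-overexpressing replicate 2 lay below wild-type replicate 3. The raw log2 fold change came to 0.57 ± 0.16 in Ts1Rhr, and the adjusted p of 0.0519 moved below 0.05 in 3 of the alternatives run: 0.0422 with a minimum mean of 5 FPKM, 0.0493 with only the compared groups fitted, and 0.0416 without Hmgn1-overexpressing replicate 2. Taf1 is X-linked, and Ts1Rhr replicate 3, the library with Y-linked RNA, had 24.0 normalised FPKM, between the other two of its group.

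Tbp, the TATA-binding protein of TFIID, had 17.1, 16.0 and 12.0 normalised FPKM in Ts1Rhr, 15.5, 17.8 and 20.4 in Hmgn1-overexpressing and 10.5, 10.8 and 9.07 in wild-type libraries. Both mutant groups lay above wild type in full, in either table. The log2 fold changes were 0.56 ± 0.23 in Ts1Rhr and 0.82 ± 0.23 in Hmgn1-overexpressing cultures, with adjusted p of 0.206 and 0.277 (limma, Benjamini-Hochberg). Exons of Tbp overlap those of the tested gene Pdcd2 on the opposite strand, and the labels do not say whether counting used the strand. Gtf2e1, the large subunit of TFIIE, which brings in TFIIH, had 12.5, 9.75 and 8.26 normalised FPKM in Ts1Rhr against 8.24, 5.05 and 6.54 in wild-type libraries. The groups met almost edge to edge, and the log2 fold change was 0.63 ± 0.29 (limma, adjusted p = 0.252). Gtf2b, the factor that bridges promoter and polymerase, had 96.8, 99.5 and 86.9 in Ts1Rhr, 101, 159 and 110 in Hmgn1-overexpressing and 147, 114 and 77.3 normalised FPKM in wild-type libraries, with the Ts1Rhr values inside the wild-type range. Gtf2a1, the precursor of the large TFIIA subunits, was among the lowest estimates in Hmgn1-overexpressing cultures, -0.06 ± 0.24.

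The 3 genes of the CDK-activating kinase, the TFIIH module that phosphorylates the tail at the start of transcription, were all above 0 in Ts1Rhr, with a median log2 fold change of 0.45. Cdk7, the kinase, had 10.2, 9.72 and 7.65 normalised FPKM in Ts1Rhr, 4.99, 10.7 and 8.62 in Hmgn1-overexpressing and 8.47, 7.98 and 6.50 in wild-type libraries. The groups overlapped, and the log2 fold change was 0.26 ± 0.28 in Ts1Rhr. Its partners Ccnh, a cyclin, and Mnat1, the assembly factor, gave 0.45 ± 0.26 and 0.45 ± 0.23 (limma, adjusted p 0.335 and 0.294). On raw FPKM Ccnh had 33.8, 41.3 and 27.8 in Ts1Rhr against 24.4, 26.3 and 24.9 in wild-type libraries, without overlap (limma, adjusted p = 0.113), though its groups overlapped on normalised FPKM. Its exons overlap those of Rasa1 on the opposite strand.

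The evenness of the P-TEFb kinase depended on the table. Cdk9 had 36.7, 38.2 and 37.2 raw FPKM in Ts1Rhr, 36.2, 37.7 and 36.4 in Hmgn1-overexpressing and 38.3, 39.7 and 34.9 in wild-type libraries. The 9 raw values lay within a 1.14-fold range, and the raw log2 fold change in Ts1Rhr was -0.01 with a 95% interval from -0.27 to 0.25. On normalised FPKM it had 39.1, 37.8 and 34.2 in Ts1Rhr, 34.4, 52.0 and 38.2 in Hmgn1-overexpressing and 44.8, 40.5 and 28.3 in wild-type libraries, a 1.84-fold range that is wider than that of Ccnt2, 1.51-fold. Ccnt1, the cyclin of most P-TEFb, had 18.3, 18.8 and 10.7 normalised FPKM in Ts1Rhr, 8.26, 19.1 and 15.4 in Hmgn1-overexpressing and 8.98, 10.8 and 10.7 in wild-type libraries. Ts1Rhr replicate 3 lay among the wild-type values, and the log2 fold change was 0.61 ± 0.31 (limma, adjusted p = 0.282). Ccnt2, the other cyclin, had 24.2, 29.0 and 23.3 in Ts1Rhr against 22.4, 22.1 and 19.6 normalised FPKM in wild-type libraries, without overlap and with a log2 fold change of 0.25 ± 0.23, but its groups overlapped on raw FPKM.

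Larp7, which binds and protects 7SK RNA, had 36.9, 35.5 and 36.6 raw FPKM in Ts1Rhr, 42.2, 28.9 and 39.7 in Hmgn1-overexpressing and 25.9, 29.9 and 25.01 in wild-type libraries. Ts1Rhr was clear of wild type, whereas Hmgn1-overexpressing replicate 2 fell within the wild-type range. On normalised FPKM both mutant groups were clear of it. The raw log2 fold change was 0.44 ± 0.16 in both mutant groups, with adjusted p of 0.0931 in Ts1Rhr and 0.297 in Hmgn1-overexpressing cultures (limma, Benjamini-Hochberg). Hexim1, the protein that inhibits Cdk9 within the 7SK particle, had 17.8, 9.88 and 17.1 raw FPKM in Ts1Rhr, 20.6, 17.5 and 19.3 in Hmgn1-overexpressing and 12.3, 18.0 and 17.3 in wild-type libraries. Ts1Rhr and wild type each had 1 low library, and their values overlapped. On normalised FPKM its log2 fold change was -0.02 ± 0.26 in Ts1Rhr and 0.49 ± 0.26 in Hmgn1-overexpressing cultures (limma, adjusted p 0.977 and 0.479).

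The 3 genes of DSIF and SPT6 had a median log2 fold change of 0.09 in Ts1Rhr and 0.12 in Hmgn1-overexpressing cultures on normalised FPKM. Supt5, the large DSIF subunit, had 42.7, 33.9 and 42.5 raw FPKM in Ts1Rhr, 50.6, 35.5 and 37.4 in Hmgn1-overexpressing and 37.2, 39.9 and 32.6 in wild-type libraries. Its small partner Supt4a had 55.3, 56.0 and 44.6 in Ts1Rhr, 48.1, 51.9 and 55.7 in Hmgn1-overexpressing and 67.5, 53.2 and 62.6 raw FPKM in wild-type libraries. Supt4a was thus the lower of the pair's estimates, at -0.28 ± 0.27 in Ts1Rhr and -0.08 ± 0.27 in Hmgn1-overexpressing cultures on normalised FPKM, and the near-identical copy Supt4b makes its reads uncertain. Supt6, which moves with the polymerase and binds histones, was among the most even, at 27.8, 27.1 and 30.7 in Ts1Rhr, 26.9, 26.2 and 25.7 in Hmgn1-overexpressing and 26.0, 28.3 and 28.2 raw FPKM in wild-type libraries. Exons of Supt6 overlap those of the tested gene Sdf2 on the opposite strand.

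Both subunits of FACT, which takes nucleosomes apart ahead of the polymerase and rebuilds them behind it, had positive estimates in either mutant group. Supt16 had 117, 133 and 131 raw FPKM in Ts1Rhr, 128, 90.8 and 120 in Hmgn1-overexpressing and 81.7, 99.3 and 102 in wild-type libraries. Ssrp1 had 138, 108 and 144 in Ts1Rhr, 156, 105 and 146 in Hmgn1-overexpressing and 86.6, 105 and 94.8 raw FPKM in wild-type libraries. On raw FPKM neither gene overlapped between Ts1Rhr and wild type, though replicate 2 of Ssrp1 stood just above it. On normalised FPKM Ssrp1 did overlap, with 136, 105 and 131 in Ts1Rhr against 111, 113 and 75.2 in wild-type libraries. The raw log2 fold changes in Ts1Rhr were 0.43 ± 0.16 for Supt16 and 0.44 ± 0.18 for Ssrp1, with adjusted p of 0.102 and 0.125 (limma, Benjamini-Hochberg). On normalised FPKM both fold changes came to 0.33, and in Hmgn1-overexpressing cultures to 0.39 ± 0.24 and 0.64 ± 0.26. Exons of both overlap those of a tested gene on the opposite strand, Rpgrip1 and P2rx3.

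Super elongation complex genes lay near 0, with a median log2 fold change of 0.11 on normalised and -0.07 on raw FPKM in Ts1Rhr. Aff1, a scaffold of the complex, had 28.0, 34.9 and 32.5 raw FPKM in Ts1Rhr, 29.4, 27.8 and 32.2 in Hmgn1-overexpressing and 25.02, 30.8 and 29.8 in wild-type libraries. Its paralogue Aff4 had 13.4, 15.5 and 16.2 in Ts1Rhr, 13.4, 14.2 and 13.3 in Hmgn1-overexpressing and 13.0, 13.8 and 17.2 raw FPKM in wild-type libraries. Both overlapped in every comparison on raw FPKM. On normalised FPKM Aff4 did not overlap between Ts1Rhr, at 15.6, 15.7 and 14.9, and wild type, at 13.9, 13.4 and 14.2. Its log2 fold change there was 0.15 ± 0.23. The elongation factor Ell2 had 10.9, 11.9 and 6.73 raw FPKM in Ts1Rhr, 8.79, 10.6 and 9.38 in Hmgn1-overexpressing and 9.86, 12.0 and 12.4 in wild-type libraries, and Ts1Rhr replicate 3 was its lowest value. Ell stayed between 3.67 and 5.37 raw FPKM in all 9 libraries.

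In the PAF1 complex, which supports elongation and histone marking, Ctr9, Leo1 and Cdc73 were above 0 in Ts1Rhr and Paf1 was not. Ctr9, its scaffold, had 21.9, 19.4 and 24.1 normalised FPKM in Ts1Rhr, 30.2, 22.5 and 23.1 in Hmgn1-overexpressing and 19.6, 16.3 and 13.7 in wild-type libraries. On this scale Hmgn1-overexpressing cultures were clear of wild type, and Ts1Rhr overlapped through replicate 2. On raw FPKM it was the other way round, with 19.7, 19.3 and 26.1 in Ts1Rhr, 32.4, 16.5 and 21.6 in Hmgn1-overexpressing and 17.8, 16.6 and 16.6 in wild-type libraries. The normalised log2 fold changes were 0.41 ± 0.23 in Ts1Rhr and 0.61 ± 0.23 in Hmgn1-overexpressing cultures (limma, adjusted p 0.337 and 0.339). Paf1 had 16.3, 9.76 and 13.3 in Ts1Rhr, 13.6, 16.4 and 16.1 in Hmgn1-overexpressing and 15.5, 13.7 and 10.2 normalised FPKM in wild-type libraries, fully mixed between groups.

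All 4 Mediator genes had positive estimates in Ts1Rhr in both tables, although Med1 turned negative once libraries were set to equal medians. Med14, the backbone of the complex, had 19.6, 19.2 and 14.4 normalised FPKM in Ts1Rhr, 16.5, 18.9 and 18.7 in Hmgn1-overexpressing and 10.8, 12.3 and 11.2 in wild-type libraries. Neither mutant group overlapped with wild type, in either table. The log2 fold changes were 0.62 ± 0.22 in Ts1Rhr and 0.66 ± 0.22 in Hmgn1-overexpressing cultures, with adjusted p of 0.16 and 0.309 (limma, Benjamini-Hochberg). Med14 is X-linked, and the library with Y-linked RNA was the lowest Ts1Rhr value. Med12, an X-linked subunit of the kinase module, had 16.5, 16.8 and 13.1 in Ts1Rhr, 11.2, 18.9 and 15.0 in Hmgn1-overexpressing and 13.4, 13.8 and 12.6 normalised FPKM in wild-type libraries, with overlap. Med1, which nuclear receptors bind, had 36.0, 38.3 and 28.6 in Ts1Rhr, 32.2, 40.5 and 40.2 in Hmgn1-overexpressing and 30.2, 36.0 and 27.7 normalised FPKM in wild-type libraries, likewise with overlap. Of the 47 genes 3 were X-linked, and 2, Polr2h and Gtf2e1, were on chromosome 16, but 0 lay inside the triplicated segment.

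Ratios between partners within a library do not depend on a common scale factor of that library. They still moved between the raw and normalised values. In Ts1Rhr replicate 1, Ccnh over Cdk7 was 4.11 on raw and 3.58 on normalised FPKM. Of 10 such pairs, 2 separated both mutant groups from wild type in both tables. Larp7 over Cdk9, on raw FPKM, was 1.01, 0.930 and 0.984 in Ts1Rhr and 1.16, 0.767 and 1.09 in Hmgn1-overexpressing, against 0.677, 0.754 and 0.716 in wild-type libraries. Ccnh over Cdk7 was 4.11, 4.36 and 3.33 in Ts1Rhr and 4.60, 3.43 and 4.36 in Hmgn1-overexpressing, against 2.95, 3.10 and 3.21 in wild-type libraries. The wild-type values were the lowest for both pairs, and Hmgn1-overexpressing replicate 2 came nearest to them for Larp7 over Cdk9. For Ccnh over Cdk7, Ts1Rhr replicate 3 came nearest, at 3.33 against 3.21 in wild-type replicate 3. On normalised FPKM that margin was slight, at 3.36 against 3.31 in wild-type replicate 2. Ssrp1 over Supt16 was higher without overlap in Hmgn1-overexpressing libraries alone, at 1.22, 1.16 and 1.22 against 1.06, 1.05 and 0.925 in wild-type libraries. These pairs were picked out after their values were seen, and no test was run on them. The Polr2a to Polr2g ratio on raw FPKM was 0.381, 0.345 and 0.377 in Ts1Rhr and 0.285, 0.245 and 0.288 in Hmgn1-overexpressing, against 0.174, 0.282 and 0.377 in wild-type libraries, which spanned nearly the whole range. Preferences between paralogues held in 9 of 9 libraries: Aff1 over Aff4, Ell2 over Ell and Ccnt2 over Ccnt1.

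**Figure D3:**
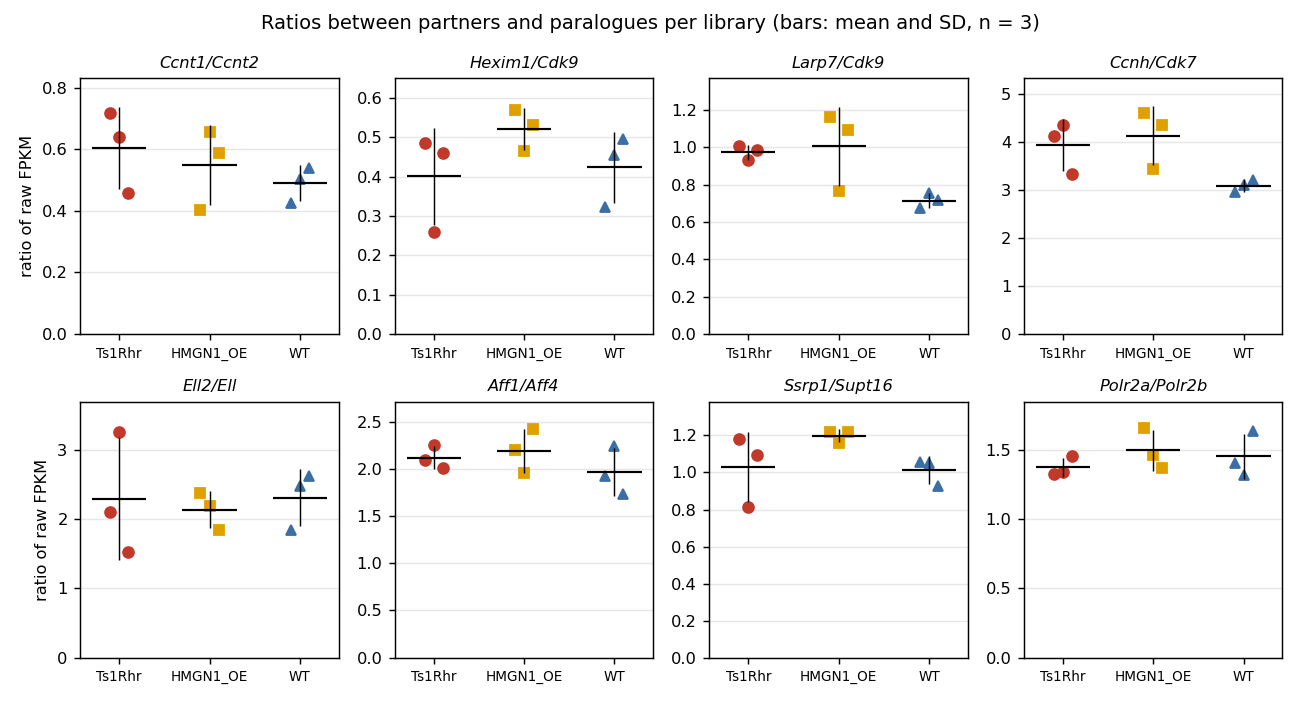
Ratios of raw FPKM within each library for 8 pairs of partners or paralogues, with the mean and SD of the 3 libraries per group. Larp7 over Cdk9 and Ccnh over Cdk7 are lower in all 3 wild-type libraries than in any mutant library. In every other pair Ts1Rhr overlaps wild type.

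Single libraries moved the whole set on normalised FPKM. Hmgn1-overexpressing replicate 2 was the highest of the 9 libraries for 22 of the 47 genes, and wild-type replicate 3 the lowest for 27. Among all tested genes those libraries were highest for 41.2% and lowest for 32.3%. The library medians of the 47 genes were 4.55, 4.56 and 4.55 (log2 normalised FPKM) in Ts1Rhr, 4.64, 4.89 and 4.70 in Hmgn1-overexpressing and 4.66, 4.41 and 4.25 in wild-type libraries. The Ts1Rhr medians were close to equal and lay within the wild-type range, and wild-type replicate 1 exceeded them. On raw FPKM the medians were 4.40, 4.57 and 4.67 in Ts1Rhr, 4.74, 4.45 and 4.61 in Hmgn1-overexpressing and 4.52, 4.42 and 4.55 in wild-type libraries, with full overlap.

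**Figure D4:**
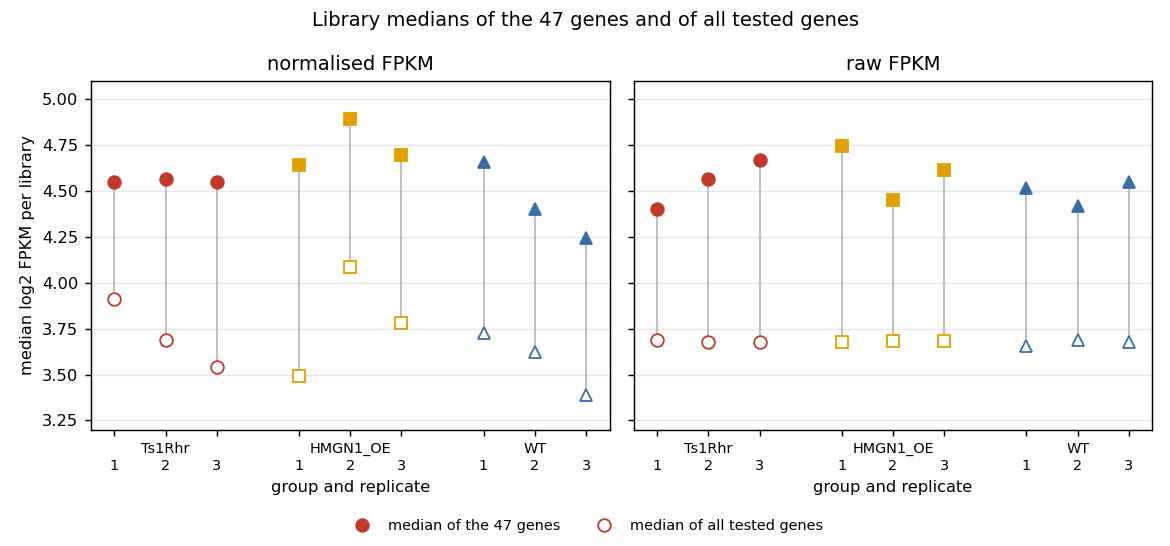
Median log2 FPKM per library of the 47 genes (filled) and of all tested genes (open), for normalised (left) and raw (right) FPKM. On the normalised scale both medians are highest in Hmgn1-overexpressing replicate 2 and lowest in wild-type replicate 3, while raw medians of all genes lie between 3.66 and 3.69.

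Fold changes were also related to transcript length, which differs widely within the set. Lengths were those of the longest coding transcript in GENCODE M21, found for all 47 genes and 9915 of the 10878 tested. This choice can overstate the length in use, as for Tbp, at 12794 bases. Across all genes, Spearman's rho between length and log2 fold change on normalised FPKM was 0.20 in Ts1Rhr and 0.01 in Hmgn1-overexpressing against wild type, and 0.33 in Ts1Rhr against Hmgn1-overexpressing cultures. Within the 47 genes it was 0.32, 0.11 and 0.48, and genes are not independent replicates. Genes were divided into 3 length classes of near-equal size. In the shortest class the median in Ts1Rhr against wild type was 0.10 for the 21 members there and -0.03 for all genes. In the longest class it was 0.24 for the 18 members and 0.21 for all genes. The small subunits with negative estimates, Polr2e, Polr2f, Polr2g, Polr2k and Polr2l, have transcripts of 601 to 1650 bases, all in the shortest class. Those with positive estimates, Polr2d, Polr2h, Polr2i and Polr2j, have transcripts of 819 to 1015 bases, in the same class. Of the 21 members there, 12 had positive and 9 negative estimates on normalised FPKM. The part of transcript length in the values of these subunits was not tested.

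**Figure D5:**
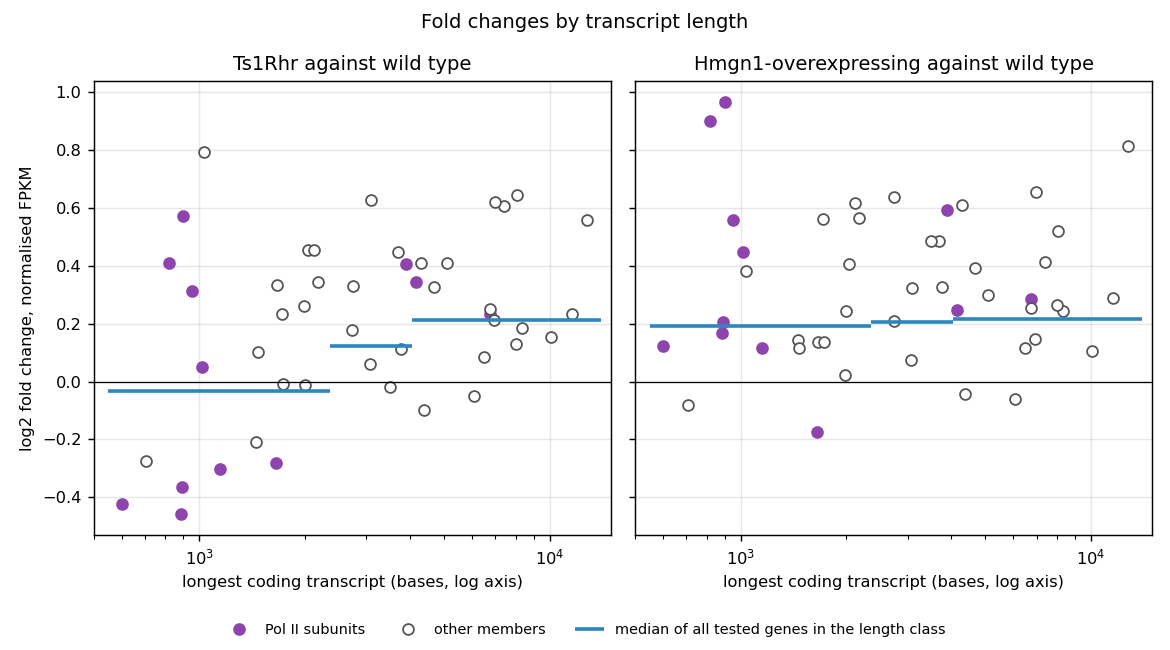
Log2 fold change on normalised FPKM against the length of the longest coding transcript (log axis) for the 47 genes, with polymerase subunits filled and medians of all tested genes per length class as bars. In Ts1Rhr the bars climb from -0.03 to 0.21 with length, whereas in Hmgn1-overexpressing cultures they stay between 0.19 and 0.22.

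The rest of the transcription apparatus was read from further lists. On normalised FPKM, 0 genes of any of these lists passed the test in any comparison. On raw FPKM, 3 rose in Ts1Rhr against wild type. Taf2, another TFIID subunit, had 19.8, 26.5 and 20.9 raw FPKM in Ts1Rhr against 12.8, 15.8 and 14.9 in wild-type libraries, 1.54-fold higher (limma, adjusted p = 0.0374). Tbpl1, a relative of Tbp, had 20.0, 24.3 and 23.5 in Ts1Rhr against 15.4, 14.7 and 16.0 raw FPKM in wild-type libraries, 1.47-fold higher (limma, adjusted p = 0.0362). Ctdspl2, which belongs to the family of small tail-directed phosphatases, had 30.3, 41.9 and 29.4 in Ts1Rhr against 17.5, 22.2 and 20.1 raw FPKM in wild-type libraries, 1.68-fold higher (limma, adjusted p = 0.0325). For all 3 the Ts1Rhr libraries lay above every wild-type one. Over all genes the raw test made 963 calls, but 3 or fewer without Ts1Rhr replicate 2 or 3 or without wild-type replicate 1 or 3.

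By list, on raw FPKM in Ts1Rhr against wild type, 2 of 14 genes of TFIID and its relatives passed, Taf2 and the Tbp relative Tbpl1. So did 1 of 19 tail phosphatase, import and termination factors. For further Mediator genes it was 0 of 28, for further TFIIH genes 0 of 6 and for tested pausing and elongation factors 0 of 25. Beside these, 8.85% of all genes passed and 4.29% were higher. Among the subunits particular to the other polymerases, 0 of 8 of RNA polymerase I and 0 of 11 of RNA polymerase III passed. All 8 RNA polymerase I subunits had positive estimates on normalised FPKM in both mutant groups, where 59.9% and 72.7% of all genes did. Their medians were 0.45 in Ts1Rhr and 0.44 in Hmgn1-overexpressing cultures, against 0.12 and 0.21 for all genes. The same medians were 0.47 and 0.48 for genes of TFIID and its relatives and 0.43 and 0.35 for tail phosphatase, import and termination factors. They were 0.32 and 0.32 for pausing and elongation factors and 0.28 and 0.34 for RNA polymerase III. Further Mediator genes had 0.18 and 0.23, and further TFIIH genes 0.14 and 0.36. On raw FPKM 7 and 6 of the RNA polymerase I subunits were positive, beside 51% and 51.6% of all genes. The same raw test called 5 of 15 tested pro-B markers higher, and 6 of 19 tested myeloid and 4 of 5 tested stromal markers lower, in Ts1Rhr, among them Rag2 at 1.97-fold higher (limma, adjusted p = 0.0309). On normalised FPKM 4 of 5 stromal markers were called lower in Ts1Rhr and 3 of 5 in Hmgn1-overexpressing cultures, while 0 of the pro-B and myeloid markers were called. On raw FPKM 1 of 5, Sparc, was called lower in Hmgn1-overexpressing cultures (limma, adjusted p = 0.0212). The part of these markers in the rise of Taf2, Tbpl1 and Ctdspl2 was not tested.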

How the data were processed

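Total polyadenylated RNA of 9 cultures was sequenced after TruSeq library preparation, with ERCC spike-in RNA added per cell number, per the labels' protocols. The authors deposited 2 tables of FPKM, 1 raw and 1 normalised further, each library in its own column. Per the submitters' processing notes, tools were HISAT and Cufflinks 2.0.0 and the build mm9. Settings, annotation and normalisation method were not given in the sources used here. Since these values are no read counts, count models were not applied, and depth is unknown. Of 23398 rows, 92 spike-in and 27 date rows were left out. Tested were the 10878 genes whose raw FPKM averaged 1 or more.

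Fits were made in R 4.3.3 by limma 3.58.1 (trend on mean level) over all 9 libraries, with 1 mean per group, two-sided p and Benjamini-Hochberg adjustment over all tested genes, at a threshold of 0.05. Raw values entered as log2(FPKM + 0.1). Normalised values entered as log2 with nothing added, on the assumption that about 0.1 is already inside them, which the sources do not state. The script was tested on simulated data. Both mutant groups were compared with the same 3 wild-type libraries, so their fold changes share them and are given side by side only.

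The genes and lists were chosen with earlier results of these data known. Values per library are given for genes chosen by role, for the 3 highest and the 3 lowest estimates of each comparison on normalised FPKM and for genes nearest to the threshold. From other lists, genes past the threshold are named. Alternatives were other pseudocounts, filters and scalings, other sets of fitted libraries and leaving out each library.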

Additional observations from a re-analysis of the deposited data

How the results depend on the processing

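Among the 47 genes, 0 were called on normalised FPKM in all 3 comparisons under every alternative run. On raw FPKM, Ts1Rhr against wild type, 1 gene (Taf1) was called with a minimum mean of 5 FPKM and 1 (Taf1) with only the compared groups fitted, and leaving out single libraries gave 0 to 1. The median log2 fold change of the 47 genes on normalised FPKM, 0.23 in Ts1Rhr against wild type, was 0.0990 with equal library medians and 0.0907 to 0.282 without single libraries. With raw values divided by 1 spike-in factor per library it was 0.157, while the median of all genes was 0.0176 in place of 0.12. In Hmgn1-overexpressing against wild type the median of the 47 genes was 0.29, but 0.0965 on raw FPKM, 0.0789 with equal library medians and 0.171 to 0.398 without single libraries. With the spike-in factor the median of all genes there was 0.143 in place of 0.21, and that of the 47 genes was 0.228. In Ts1Rhr against Hmgn1-overexpressing it was -0.06, but 0.0216 on raw FPKM, 0.0081 with equal library medians and -0.172 to -0.0011 without single libraries. The cause was not tested.

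Counts over all genes moved far more. In Ts1Rhr against wild type the 62 calls on normalised FPKM became 693 with equal library medians, 8 with no filter, 267 with only the compared groups, 119 with the replicate block and 4 to 203 without single libraries. The 963 raw calls became 264 with no filter, 314 with the replicate block and 1 to 1276 without single libraries, with 3 or fewer without Ts1Rhr replicate 2 or 3 or wild-type replicate 1 or 3. In Hmgn1-overexpressing against wild type the 10 normalised calls became 19 with a pseudocount of 1, 4 with no filter, 18 with only the compared groups and 1 to 17 without single libraries. The 4 raw calls became 19, 27 and 9 under the first 3 of these, and 0 to 12 without single libraries. In Ts1Rhr against Hmgn1-overexpressing the 0 normalised calls became 1 with a pseudocount of 1, 5 with the replicate block and 0 to 3 without single libraries, and the 0 raw calls 0 to 6 without single libraries.

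Same-numbered libraries of Ts1Rhr and wild type correlated at 0.0140, -0.1031 and -0.0897 in their deviations on normalised FPKM, and in no comparison did all 3 exceed 0.1, nor did each library correlate best with its own number. The libraries share only a number, and the replicate block called 0 of the 47 genes. Over all alternatives the sign held for 33 of 47 genes in Ts1Rhr against wild type, 30 in Hmgn1-overexpressing against wild type and 21 between the mutant groups. Scaling also changed signs. With equal library medians Ell, Gtf2f2, Med1, Polr2d, Supt5 and Supt6 turned negative in Ts1Rhr against wild type. Others, among them Cdk7, Cdk9 and Polr2e, did so in Hmgn1-overexpressing against wild type. A selection of 51 fold changes was followed on normalised FPKM. Of their alternative values 851 kept sign and call and 13, all without single libraries, changed sign. In Ts1Rhr against wild type these ran from -0.2054 to 0.1258 for Cdk9 and from -0.2467 to 0.2561 for Hexim1. In Hmgn1-overexpressing against wild type they ran from -0.5046 to 0.2783 for Polr2l, from -0.2347 to 0.0876 for Gtf2a1 and from -0.2388 to 0.1363 for Supt4a. Between the mutant groups they ran from -0.0743 to 0.4744 for Cdk7 and from -0.0539 to 0.2243 for Polr2b. Depth is unknown, and no interval for counting error can be given.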
